A study of Homo sapiens with 3 samples.

Results

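The proteasome subunits and assembly factors were taken from ribosome profiling tables of HEK293T cells by gene name: any symbol that begins with PSMA to PSMG followed by a number, plus POMP and ADRM1, provided that the gene was listed in all 3 libraries. This rule found 35 genes among 8812 transcripts, 1 transcript per gene. HEK293T cells, a line derived from human embryonic kidney, express the large T antigen of SV40. 2 libraries came from untreated cells (Untreated A and Untreated B) and 1 from cells given the aminoglycoside G418 at 500 µg/mL for 24 hours (G418 A), and the study asked how far aminoglycosides make ribosomes read through stop codons. All 3 libraries share the line and the medium and differ, by their labels, in the drug alone.

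The 26S proteasome degrades proteins tagged with ubiquitin. Its core particle is a barrel of alpha rings, which gate the entry, around beta rings, which hold the cutting sites, and the regulatory particle that caps it has a base, whose ATPases unfold the substrate, and a lid, which removes the ubiquitin chain. Activators are other caps that open the barrel, and assembly factors are chaperones that build the rings and leave the finished particle.

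The 35 genes fell into 11 of the core, 9 of the base, 6 of the lid, 2 activators, 6 assembly factors and PSMC3IP. PSMC3IP, a meiotic recombination factor, carries a matching name but is not part of the proteasome. 10 of the 14 constitutive core subunits were present, and PSMA2, PSMA7, PSMB4, PSMB6, PSMC1, PSMD7, PSMD12, PSME2, PSME4, PSMG1 and POMP were not analysed here. Unless stated, counts and medians cover the 31 genes whose mean CDS read count over the libraries was at least 7 on the log2 scale. They stand beside those of 5684 transcripts with the same minimum, which leaves out PSMB9, PSMG3, PSMG4 and PSMC3IP. The libraries held 5857230, 9477972 and 7216039 reads on transcripts. Of 6 genes listed as typical of HEK293 cells, 4 were present (LIN28B, NEFM, HOXC10 and IGF2BP1), while PAX2 and HOXA9 were not. No leukocyte, hepatocyte or erythroid marker was listed. Of 3 fibroblast markers COL1A1 was listed, at 7.98, 10.7 and 8.61 RPKM. It lay above HOXC10 (1.71, 3.50 and 3.62 RPKM) and below LIN28B, NEFM and IGF2BP1 in every library. With a single G418 library no difference between conditions can be tested, and intervals cover counting error only.

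By the median of each part, the constitutive core subunits had the highest footprint densities of the complex. Single genes overlapped, and the lid gene PSMD8 lay above the core genes PSMA5, PSMA6 and PSMB5 in every library. The median CDS density, in RPKM (footprints per kilobase of CDS, scaled to library depth), of the 10 constitutive core genes was 567 and 568 in the untreated libraries A and B and 506 in G418 A, against 187, 202 and 147 for the base and 247, 237 and 238 for the lid. The core median was therefore 3.03, 2.82 and 3.45 times that of the base in the same libraries. The 6 assembly factors had far lower medians of 43.2, 49.4 and 59.1 RPKM. These medians include PSMG3 and PSMG4, which lie under the read minimum. The medians of all transcripts past the minimum were 37.7, 38.7 and 41.7 RPKM. Of the 4 assembly factors past it, PSMD10 (187, 158 and 166 RPKM) and PSMG2 (144, 131 and 198 RPKM) lay well above these. Both also lay above the base gene ADRM1 in every library. PSMD5 (37.2, 41.6 and 42.9 RPKM) and PSMD9 (46.8, 48.2 and 69.2 RPKM) lay nearer to the medians of all transcripts.

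**Figure D1:**
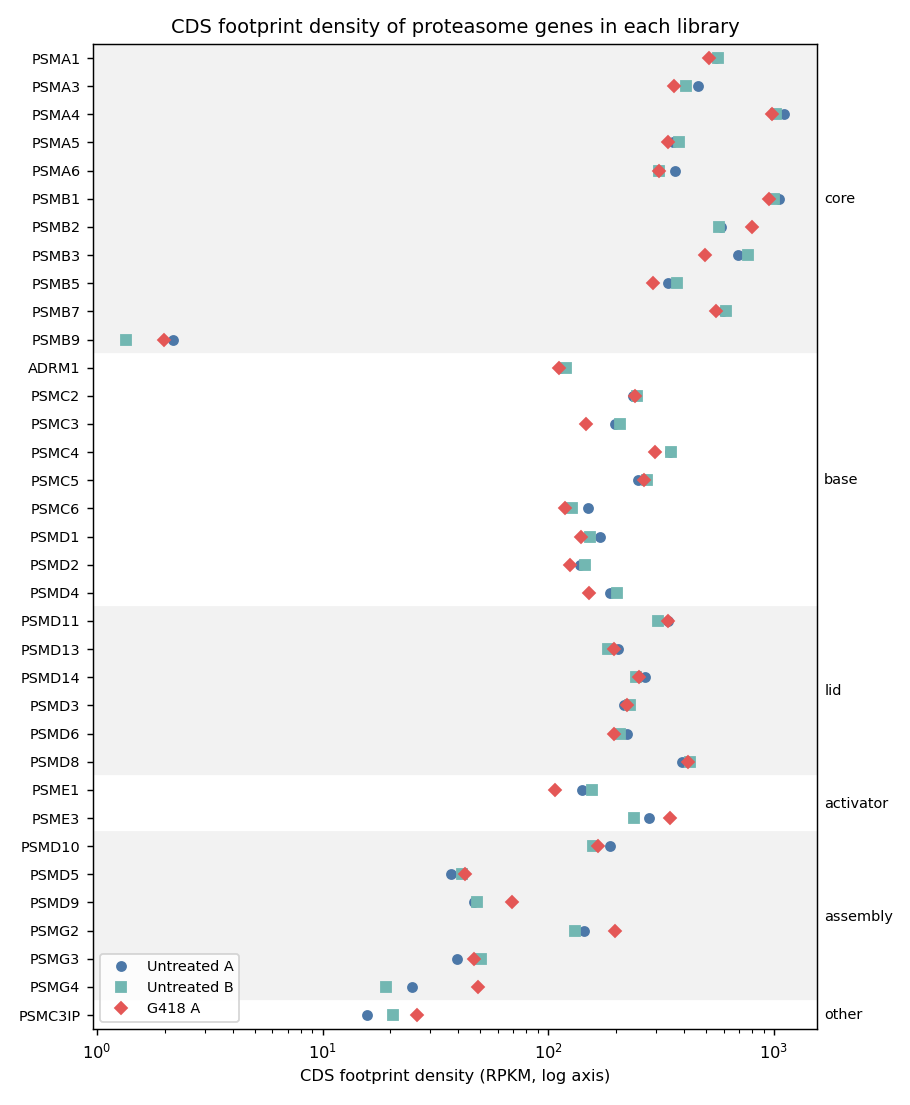
Each row is a gene and each point its CDS footprint density in RPKM on a log axis in Untreated A (circles), Untreated B (squares) or G418 A (diamonds), with shading by part of the proteasome. Core genes other than PSMB9 sit between 291 and 1110 RPKM, and PSMB9 stands apart near 2 RPKM in all 3 libraries.

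Within the core, whose subunits occupy equal numbers of positions in the barrel, densities were not equal. The coefficient of variation over the 10 constitutive genes was 44.9%, 42.7% and 46.8% in the 3 libraries. PSMA4, an alpha ring subunit, was the highest in each library at 1109.9, 1019.6 and 981.8 RPKM, and PSMB1, a beta ring subunit, came next at 1050, 1006 and 953 RPKM. The lowest was PSMB5, which carries the chymotrypsin-like site, in Untreated A (341 RPKM) and G418 A (291 RPKM), and PSMA6 in Untreated B (310 RPKM). The order PSMA4, PSMB1 was kept in all libraries, whereas PSMA5, PSMA6 and PSMB5 changed places at the bottom between the untreated libraries. PSMB9, an immunoproteasome subunit that replaces a constitutive beta subunit after interferon, had 8, 8 and 9 CDS reads.

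In the base the ATPase PSMC4 was highest at 347, 349 and 299 RPKM. The ubiquitin receptor ADRM1 was lowest at 113, 120 and 112 RPKM. In the lid the highest was PSMD8, with 393, 426 and 414 RPKM. The remaining lid genes lay between 184 and 341 RPKM in every library. Among the assembly factors PSMD10 (gankyrin, a base chaperone) was highest in both untreated libraries at 187 and 158 RPKM, and PSMG2, a partner in a core assembly chaperone, was highest in G418 A at 198 RPKM.

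CDS densities of the proteasome genes moved little in G418, and more of them were lower than higher. For the 31 genes the median log2 change against the mean of the untreated libraries was -0.12, against 0.07 over all 5684 transcripts. The same median was -0.10 over Untreated A alone and -0.08 over Untreated B alone, and Untreated B over Untreated A gave 0.04. No proteasome gene reached 1.5-fold in either direction while also lying beyond both untreated libraries, a rule met upward by 7.64% and downward by 1.5% of all transcripts. At a lower bar of 0.32 on the log2 scale, 4 genes were past the rule upward (PSMB2, PSME3, PSMD9 and PSMG2; background 21.9%) and 4 downward (PSMB3, PSMC3, PSMD4 and PSME1; background 7.93%). Irrespective of size, 18 of 31 were below both untreated libraries, against 27.9% of all transcripts, and 6 were above both, against 46.3%.

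The scale between libraries matters for these signs. Under median-of-ratios scaling the median of all transcripts moved from 0.07 to -0.04, so that 24 proteasome genes lay below both untreated libraries (40.6% of all transcripts did) and 4 above both (32.2%). The 1.5-fold rule then called 250 transcripts up and 170 down in place of 434 and 85. Relative to the median of all transcripts the proteasome median stood at -0.19 on the log2 scale under each scaling. A change of scale shifts all transcripts by nearly the same amount, so this difference could hardly move. The values below use the deposited RPM scale.

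In the core, 9 of 10 genes were below both untreated libraries, among them all 5 alpha ring genes, with a median log2 change of -0.12 (-0.23 under median-of-ratios scaling). PSMA1, PSMA4, PSMA5, PSMA6, PSMB1 and PSMB7 had log2 changes between -0.13 and -0.11. 2 beta ring genes departed from the rest. PSMB3, a beta subunit without a cutting site, had 695 and 767 RPKM in the untreated libraries and 497 RPKM in G418 A, a log2 change of -0.56 with a counting error of 0.04. PSMB2, another beta subunit without a cutting site, had 582 and 569 RPKM untreated and 799 RPKM in G418 A, a log2 change of 0.47. For each gene the G418 value lay well outside the untreated pair. In the order of core genes PSMB2 stood below PSMB3 in both untreated libraries and above it in G418 A. PSMB5 had 341 and 371 RPKM untreated and 291 RPKM in G418 A, a log2 change of -0.29.

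In the base, 7 of 9 genes were below both untreated libraries and none was above both, with a median log2 change of -0.21. This median was -0.13 without Untreated A and -0.32 under median-of-ratios scaling, where all 9 lay below both. The lowest change belonged to the ATPase PSMC3, which had 199 and 208 RPKM untreated and 147 RPKM in G418 A (log2 change -0.47). PSMD4, a ubiquitin receptor, had 187 and 202 RPKM untreated and 152 RPKM in G418 A (log2 change -0.35). In both genes G418 A was lower than either untreated library by more than these differed from each other. The ATPases PSMC2 and PSMC5 had the highest log2 changes of the base and lay between the untreated libraries. PSMC2 had 237, 247 and 243 RPKM, and PSMC5 had 251, 274 and 266 RPKM.

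The lid was nearly level, with a median log2 change of 0.01, which became -0.10 under median-of-ratios scaling. 4 of its 6 genes lay between the untreated libraries. PSMD11 was the only lid gene above both, at 338, 307 and 341 RPKM (log2 change 0.08, below 0 under median-of-ratios scaling). PSMD6 was below both at 224, 208 and 196 RPKM (log2 change -0.14). PSMD14, the deubiquitinase of the lid, had 270, 244 and 252 RPKM, and PSMD13 had 203, 184 and 196 RPKM.

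The 2 activators differed in direction. PSME1, a subunit of the interferon-inducible cap PA28 alpha-beta, had 141 and 156 RPKM untreated and 108 RPKM in G418 A, a log2 change of -0.47. PSME3, the nuclear cap PA28 gamma, had 279 and 240 RPKM untreated and 345 RPKM in G418 A, a log2 change of 0.41. In each gene G418 A lay outside the untreated pair, and the signs held under both scalings.

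The 4 assembly factors with enough reads had a median log2 change of 0.32, on the opposite side of 0 from core and base. PSMD9, a base chaperone, had 46.8 and 48.2 RPKM untreated and 69.2 RPKM in G418 A (log2 change 0.54, from 175, 292 and 319 reads). PSMG2 had 144 and 131 RPKM untreated and 198 RPKM in G418 A (log2 change 0.53). These 2 lay clear of the untreated pair under either scaling. The other base chaperones moved less, PSMD5 with 37.2, 41.6 and 42.9 RPKM and PSMD10 with 187, 158 and 166 RPKM. Below the read minimum, the core chaperone PSMG4 had 29, 36 and 70 reads (25.01, 19.2 and 49.0 RPKM, log2 change 1.15 with a counting error of 0.25), and its partner PSMG3 had 39.6, 50.6 and 47.0 RPKM. No difference between these parts was tested, since each rests on the same single G418 library.

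**Figure D2:**
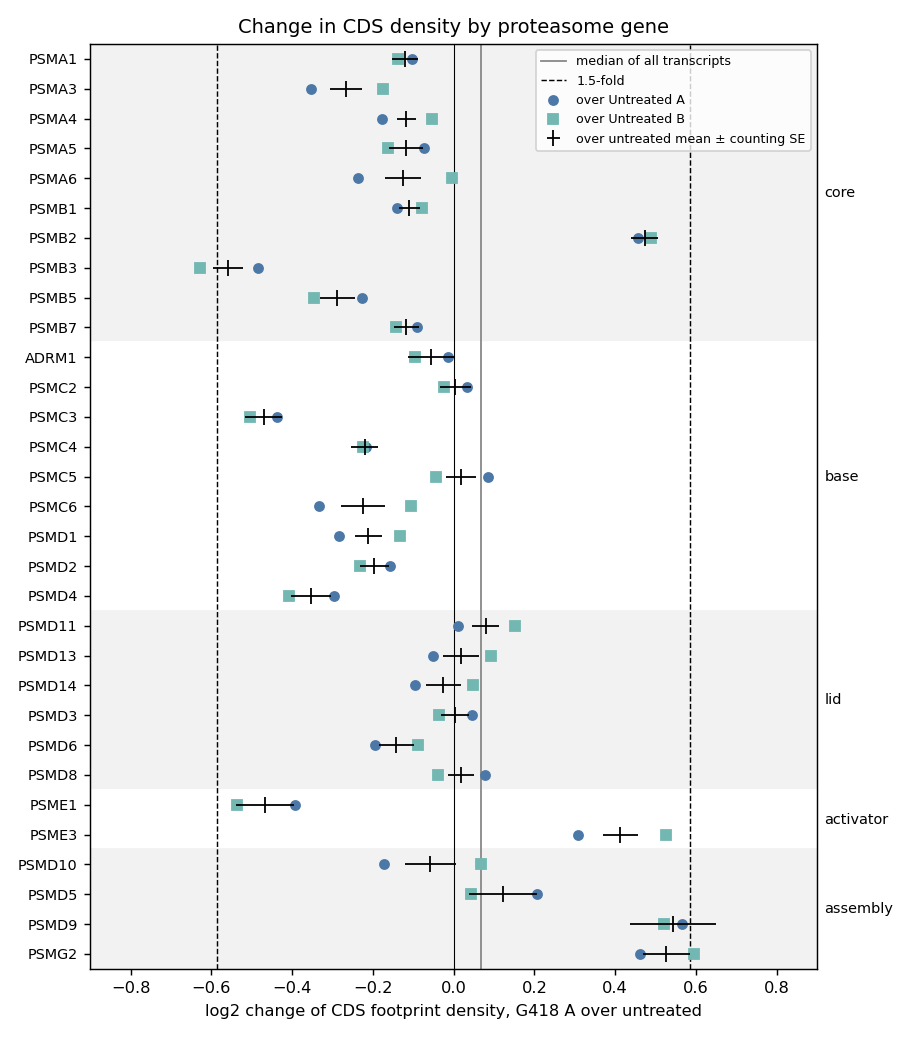
Rows are the 31 genes with enough reads, and points give the log2 change of CDS density in G418 A over Untreated A (circles) and over Untreated B (squares), with black ticks for the change over the untreated mean and bars for its counting standard error. The dashed lines mark 1.5-fold and the grey line the median of all transcripts at 0.07. Most core and base points lie left of 0, with PSMB2, PSME3, PSMD9 and PSMG2 on the right.

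Primary alignments only had been kept, and 12 of the 35 genes have pseudogenes named after them in the GENCODE 44 annotation (20 in all, 4 of them for PSMA6). Reads of PSMA1, PSMA3, PSMA5, PSMA6, PSMB3, PSMB7, PSMC2, PSMD4, PSMD8, PSMD10, PSMD14 and PSMG3 can be credited to such copies. The levels of these genes, and their readthrough values below, are uncertain to that extent. Footprints alone do not separate the amount of mRNA from its translation.

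Of 28 listed genes that serve the proteasome without belonging to it, 21 were measured, and their median log2 change was 0.21, against -0.12 for the proteasome genes. 17 were higher and 4 lower (14 and 7 under median-of-ratios scaling), where 59.1% of all transcripts were higher (44.8% under that scaling). 2 were past 1.5-fold upward (background 7.64%) and none downward (background 1.5%). Among these, UBQLN4, a shuttle factor that carries ubiquitinated substrates to the proteasome, had 11.9 and 15.8 RPKM untreated and 21.4 RPKM in G418 A (log2 change 0.63), and was no longer past the rule under median-of-ratios scaling. The transcription factor NFE2L1, which drives proteasome genes, had 57.7, 60.8 and 74.6 RPKM, and NGLY1, the enzyme that removes its sugars, had 11.1, 12.7 and 17.1 RPKM. Neither passed the 1.5-fold rule. On the lower side were the unfoldase VCP, with 394, 410 and 328 RPKM, and the proteasome-bound factors PAAF1 and ECPAS, with log2 changes of -0.40 and -0.34.

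Readthrough was measured by the ribosome readthrough score (RRTS), the footprint density between the normal termination codon and the next in-frame stop codon as a share of the CDS density of the same transcript, leaving out the first 6 nt. Pooled over the 31 genes, the untreated libraries had 38 and 77 readthrough reads, which gave an RRTS of 0.954% and 1.21%. The G418 library had 1256 such reads, for an RRTS of 27.3% (95% Poisson interval 25.8% to 28.9%), 25.2 times the untreated mean of 1.08% ± 0.184 (SD, n = 2). All transcripts gave 1.41% untreated and 21.3% in G418 A, 15.2 times the untreated value.

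At least 1 readthrough read was seen in G418 A for 30 of 31 genes, against 75.8% of all transcripts, and 11 and 16 genes had any in Untreated A and Untreated B, against 24% and 22.3%. The RRTS was above both untreated values in 29 of 31, against 72% of all transcripts. The CDS densities of these genes also exceed those of most transcripts, and the part of depth in these shares was not tested. The exceptions were PSMD5, with no read in a region of 15 nt, and PSMA5.

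Much of the excess of the pooled RRTS over that of all transcripts lay in 2 genes. PSMA4 alone held 301 of the 1256 reads (24.0%), and PSMA4 with PSMD8 held 38.9%. Without those 2 the pooled RRTS of the other 29 genes was 19.4% (interval 18.1% to 20.8%). The 21.3% of all transcripts keeps its own top genes, so the 2 values are not a like comparison. The median RRTS in G418 A was 22.2% for the 31 genes and 18.35% for all transcripts. The 12 UAA genes, which include neither PSMA4 nor PSMD8, gave 18.03% (interval 15.8% to 20.5%). All transcripts at the stop signals of those UAA genes would give 13.8%. At the stop signals these 31 genes carry (the stop codon and the base after it), all transcripts together would give 23.1%. 19 of 31 genes lay above the median of the transcripts with their own signal.

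Taken by part, G418 A gave a pooled RRTS of 31.5% for the core (interval 29.2% to 33.9%), 21.7% for the base (18.3% to 25.5%), 26.0% for the lid (23.3% to 28.9%), 17.1% for the activators (11.3% to 24.7%) and 21.1% for the assembly factors (16.2% to 27.1%). The untreated means of the first 3 were 1.20% ± 0.385, 1.05% ± 0.333 and 1.11% ± 0.0577 (SD, n = 2). The assembly factors had 3 reads, all in PSMD9, in Untreated A (1.32%) and 1 read in Untreated B (0.307%). The core lost its lead without PSMA4, at 22.2%, and the lid stood at 13.5% without PSMD8. The 2 activators had no readthrough read in either untreated library and 28 in G418 A.

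**Figure D3:**
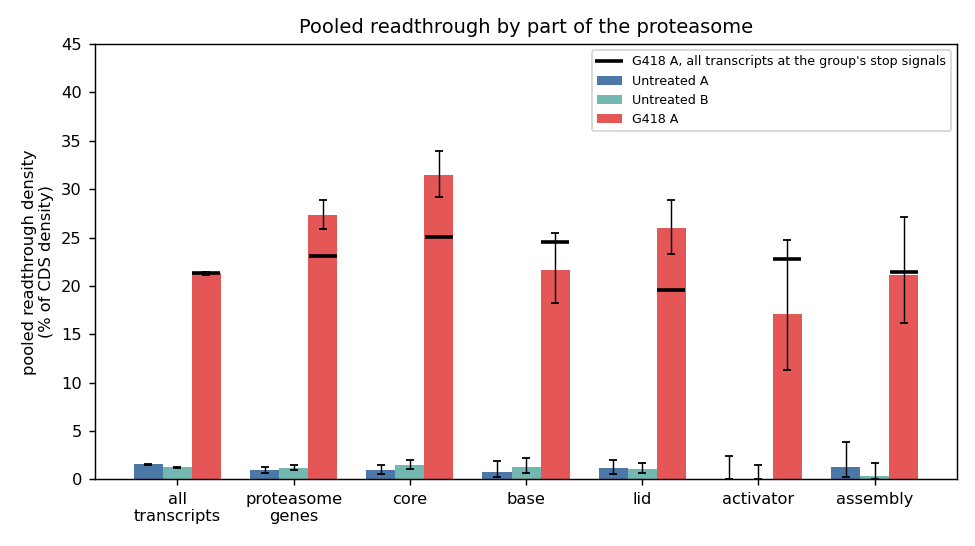
Bars give the pooled RRTS in percent of CDS density for all transcripts, the 31 proteasome genes and each part in the 3 libraries, with exact 95% Poisson intervals of the reads. Black dashes mark what all transcripts with the same stop signals gave in G418 A. Core (31.5%) and lid (26.0%) stand above their dashes (25.1% and 19.6%), and the intervals of the other 3 parts reach theirs. Without PSMA4 the core gave 22.2%, and without PSMD8 the lid gave 13.5%. In each part the gene left out was the one with the most readthrough reads, and the dashes keep it.

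The genes with the highest and the lowest RRTS show how unlike their stop contexts are. The lines below give 30 bases from the reference genome (hg38, GENCODE 44 transcripts), 12 before the stop codon, on the strand of the gene, with the 4-base stop signal in capitals. The first 4 had the highest RRTS among genes with at least 10 readthrough reads, and the last 4 the lowest among genes where at least 10 were to be counted at the average of all transcripts.
PSMD8 (chr19:38383376-38383405, plus strand): gagatgatcgtcTGAGccccccgggcactg
PSMA4 (chr15:78548930-78548959, plus strand): gaaaaggataaaTAGAatcagagattttat
PSMD9 (chr12:121916297-121916326, plus strand): cctctgcaaagaTGATtgtccctggggaac
PSMD14 (chr2:161411386-161411415, plus strand): gtcgtatttaaaTAAAgcaacgaaaaacgc
PSMA5 (chr1:109401998-109402027, minus strand): atcaaggacattTAAGgaatcctgatcctc
PSMD11 (chr17:32480617-32480646, plus strand): aagaaactgacaTAGGtgagtgctggcttc
PSMD2 (chr3:184308876-184308905, plus strand): aattatgatctcTAAGtgaccaccaggggc
PSMA6 (chr14:35317292-35317321, plus strand): gcagagagagacTAAAcattgtcgttagtt

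All 8 stop codons lie in the last exon of their transcripts. The deposited PSMD8 transcript is absent from GENCODE 44, and its context was read from another transcript of the gene with the same stop signal and region. The high set holds UGA, UAG and UAA stops and the low set UAA and UAG, and the signal UAAA occurs in both, in PSMD14 and in PSMA6.

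PSMD8, a lid subunit, had 2 and 3 readthrough reads in the untreated libraries and 188 in G418 A, over a region of 66 nt. Its RRTS was 1.32%, 1.13% and 95.3% (interval 82.1% to 110%), so that in G418 A the region past its stop codon was about as dense as its CDS. 70 of the 1054 transcripts with its signal, UGAG, were higher, and their median was 19.9%. PSMA4 had 0, 1 and 301 readthrough reads over 63 nt, and its RRTS was 0%, 0.164% and 67.4% (60.03% to 75.5%). 33 of 351 UAGA transcripts were higher, with a median of 17.8%. In neither gene does the region overlap another annotated CDS of the same gene. PSMD8 is among the genes with a named pseudogene, and reads credited to that copy would change its score.

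PSMD9 had 3, 0 and 26 readthrough reads and an RRTS of 12.6%, 0% and 59.9% (39.1% to 87.7%). PSMD14 had none in either untreated library and 15 in G418 A, in a region of only 15 nt, an RRTS of 54.9% (30.7% to 90.6%). Its signal, UAAA, had a median of 7.69%, and 63 of 662 such transcripts were higher. The 4 intervals of the high set overlap in part, and PSMD8 lay above PSMA4 without overlap.

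At the other end, PSMA5, an alpha ring subunit, had 0, 6 and 3 readthrough reads and an RRTS of 0%, 4.27% and 3.14% (0.649% to 9.19%), with G418 A between the untreated libraries. PSMD11 had 1, 1 and 14 readthrough reads where 317 would match its CDS density, an RRTS of 0.391%, 0.266% and 4.41% (2.41% to 7.40%). PSMD2, a base scaffold, had 0, 1 and 6 reads and PSMA6, an alpha ring subunit, had 0, 0 and 6, for 5.57% and 5.61% in G418 A. PSMA5, PSMA6 and PSMD2 carry UAAG or UAAA, whose medians over all transcripts were 5.73% and 7.69%. Each lay under its own median, but its interval reached that median. PSMD2 had 209 and PSMA5 had 237 of 412 UAAG transcripts higher, and PSMA6 had 371 of 662 UAAA transcripts higher. PSMD11 was lower beside its UAGG median of 13.4%, with 234 of 338 transcripts higher.

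**Figure D4:**
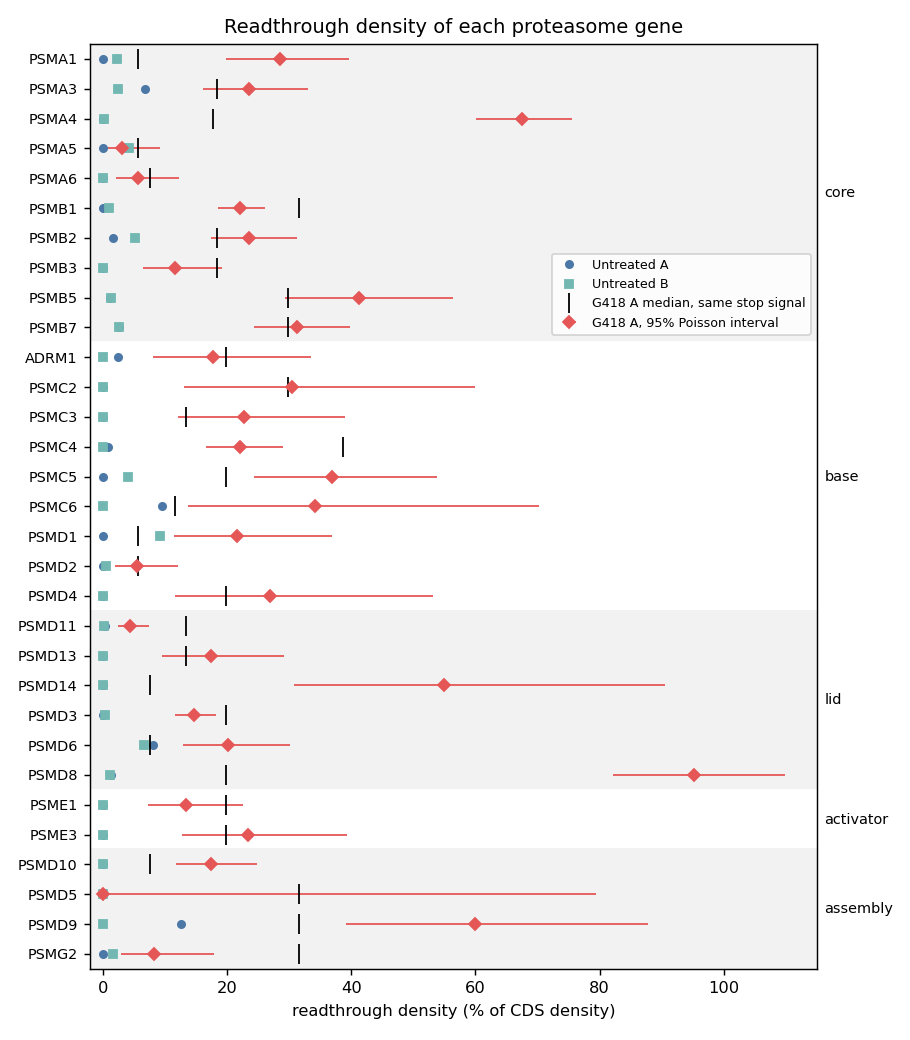
Rows are the 31 genes, with the RRTS in percent of CDS density in G418 A (diamonds with exact 95% Poisson intervals), Untreated A (circles) and Untreated B (squares), and black ticks for the G418 A median of transcripts with the same stop signal. PSMD8 at 95.3% and PSMA4 at 67.4% stand far right of their ticks, and PSMA5 at 3.14% overlaps its untreated points.

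Between these ends the core genes PSMB5 and PSMB7, both with UGAA, had an RRTS of 41.2% (39 reads) and 31.4% (68 reads) beside a UGAA median of 29.8%. PSMB5 had 1 and 2 readthrough reads untreated and PSMB7 had 5 and 8. PSMB1, the second highest core gene by CDS density, had 0, 9 and 137 reads and reached 22.1% in G418 A, under its UGAU median of 31.6%. PSMA1, an alpha ring subunit, had 0, 4 and 35 reads and 28.5%, against a UAAG median of 5.73%.

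In the base, PSMC5 had 0, 4 and 27 readthrough reads and reached 37.0% in G418 A. PSMC3 had none untreated and 13 reads (22.8%), and PSMC4 had 2, 0 and 53 reads (22.2%), under its UGAC median of 38.7%. PSMC3, PSMC5, PSME1 and PSMG3 have no in-frame stop codon in the deposited 3′UTR, so their regions run to the end of the transcript. The deposited regions of these genes are 6 nt shorter than the deposited 3′UTRs, and over the 3′UTR length the RRTS in G418 A would be 20.5% for PSMC3, 31.9% for PSMC5 and 12.9% for PSME1. PSMC6 had 2, 0 and 7 reads (34.1%). PSMD1 had 0, 8 and 13 reads (21.6%), but 54 nt of its 60 nt region lie in the CDS of another PSMD1 transcript in GENCODE 44, as do 54 nt of the 342 nt region of PSMD3. Reads from those isoforms would count as readthrough here. PSMD3, a lid subunit, had 0, 3 and 81 reads (14.6%).

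In the lid PSMD6 had the most untreated readthrough reads, 9 and 11, for an RRTS of 8.17% and 6.65%, and reached 20.2% from 24 reads in G418 A. Of the activators, PSME3 had 14 reads in 24 nt (23.4%) and PSME1 14 reads in 134 nt (13.4%), both with UGAG. Among the assembly factors PSMD10 had 0, 0 and 30 reads (17.4%, UAAA), and PSMG2 had 0, 1 and 6 reads (8.22%), low beside its UGAU median of 31.6%. PSMD5, also UGAU, had no read, which at 459 CDS reads allows an RRTS of up to 64.6% by a limit of 3 reads (the upper end of its 95% Poisson interval is 79.4%), so readthrough at the level of other genes was not detectable there. The same limits for PSMG4 were 35.4% and 43.5%, and for PSMB9 the depth set no useful limit.

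By stop codon, UGA ends 15 of the 31 genes, UAG 4 and UAA 12 (48.4%, 12.9% and 38.7%, against 48.9%, 21.1% and 30.01% of all transcripts). Pooled RRTS in G418 A was 28.4% for the UGA genes, 37.9% for UAG and 18.03% for UAA, against 29.9%, 19.2% and 12.2% over all transcripts. The UAG value was that of PSMA4, since the other 3 UAG genes (PSMC3, PSMD11 and PSMD13, all UAGG) gave 9.01% together. The UGA genes gave 22.4% without PSMD8, which held 188 of their 678 reads. In Untreated A and B the UAA genes gave 1.96% and 2.47%, against 1.19% and 1.02% over all UAA transcripts. The untreated UGA and UAG genes lay below all transcripts with their stop codon.

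Footprints past the next in-frame stop codon were also counted. Over the 25 genes with more than 20 nt of 3′UTR beyond it, 35 and 50 reads untreated and 524 in G418 A gave densities of 0.109%, 0.0976% and 1.15% of the CDS density, against 0.178%, 0.157% and 0.853% over all transcripts. The untreated proteasome values lay below those of all transcripts and the G418 value above. PSMB2, with the longest 3′UTR of the set (3720 nt), held 15, 18 and 145 of these reads, PSMD11 held 1, 7 and 65, and PSMB5 held 0, 0 and 48. PSMA4 had 6, 7 and 29, and PSMD8 had 0, 2 and 17.

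In the 5′UTR the direction was the opposite. Per 100 CDS reads the 31 genes had 1.10, 1.27 and 0.656 footprints in their 5′UTRs, against 2.09, 2.20 and 1.91 over all transcripts. All 9 proteasome genes with a mean of at least 20 such footprints were below both untreated libraries in G418 A, where 51.3% of 1075 transcripts were, and their median ratio to the untreated mean was 0.484, against 0.805. The mean was taken over the 3 libraries, so genes could pass through their untreated footprints. PSMA1 (36, 56 and 10), PSMA6 (20, 33 and 7) and PSMC3 (24, 48 and 13) did so. This filter favours genes with fewer such footprints in G418 A, so a place below both was in part set by it. How strongly it acted on the 9 genes and on the 1075 transcripts was not computed, so setting their shares side by side tests nothing. PSME3 had 9.70, 11.5 and 3.73 per 100 CDS reads (121, 200 and 71 footprints). PSMB3 had 3.90, 4.07 and 1.15, and PSMA1 had 1.46, 1.37 and 0.354. PSMD14, with 9.01, 9.32 and 8.60, changed least of the 9. The lower ratio accompanied CDS densities that were higher in PSME3 and PSMB2 and lower in PSMB3 and PSMC3.

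**Figure D5:**
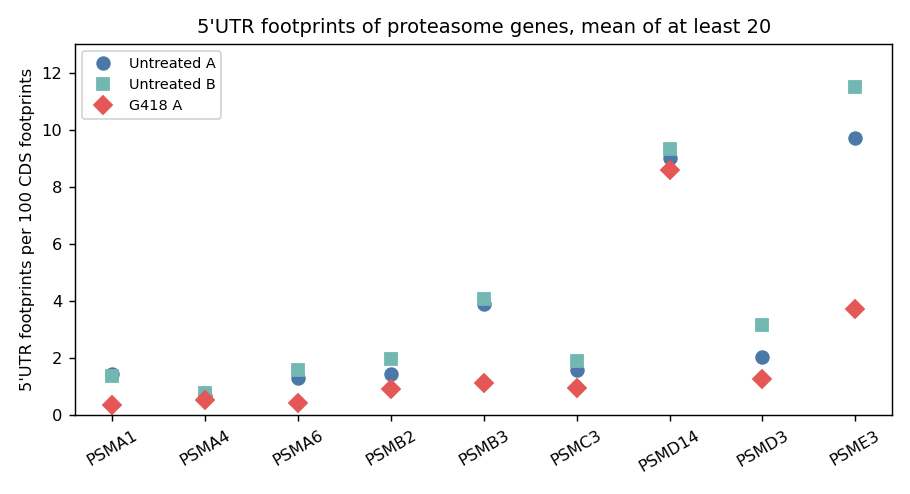
For the 9 proteasome genes with a mean of at least 20 5′UTR footprints over the 3 libraries, points give 5′UTR footprints per 100 CDS footprints. Circles are Untreated A, squares Untreated B and diamonds G418 A. The diamond is the lowest point for every gene, far below the others in PSME3 (3.73 against 9.70 and 11.5) and just below in PSMD14 (8.60 against 9.01 and 9.32).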

How the data were processed

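The 3 ribosome profiling libraries (2 untreated, 1 with G418) were analysed from tables that the authors deposited with 1 row per transcript. Per the study's methods, reads sharing a molecular identifier were collapsed, noncoding RNA was removed, and the rest was aligned with STAR to hg38 with GENCODE 30, keeping primary alignments. Footprints of 28 to 35 nt were placed at the A site. The authors deposited RPM values, whole-number counts, RPKM densities (RPM per kilobase) and a ratio, the RRTS. The CDS ends (18 nt at the start, 15 nt at the end) are left out.

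RPM values were whole multiples of 1 read and were converted to reads. In Untreated A the deposited count was 1 below the recovered reads for all 35 genes. The expected readthrough reads are the CDS density times the region length, and the deposited tables hold regions of at least 18 nt before 6 nt are removed. Intervals are exact Poisson intervals (scipy 1.17.1). Values in each library were given for genes picked within each part by the highest and lowest change, level and RRTS. Scripts were tested on simulated data. Members and lists were chosen with earlier results of these data known. Whether the libraries came from separate cultures is not in their labels, but the study describes its libraries as biological replicates. Sequences and exons came from GENCODE 44, where the deposited transcript of 34 of 35 genes matched. Alternatives were the scaling, the read minimum, the fold, the region length, the count column, and leaving out each untreated library. The values of 1 gene of the list that serves the proteasome are not reported here.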

Additional observations from a re-analysis of the deposited data

How the results depend on the processing

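No paired analysis was possible because the untreated and G418 groups share a single replicate letter. The median log2 change of -0.12 was -0.22 with median-of-ratios scaling and -0.058 with no read minimum, and -0.102 to -0.078 without either untreated library. The lid median of 0.01 became -0.02 without Untreated B. The count of 0 genes past 1.5-fold became 1 with median-of-ratios scaling (PSMB3), 1 with no read minimum (PSMG4) and 8 at a bar of 0.32 on the log2 scale, and 0 to 2 when an untreated library was left out (PSMB3 and PSMG2 without Untreated A). It remained 0 at 500 reads, with deposited counts and at 2-fold. The pooled RRTS of 27.3% was 29.1% with regions of at least 60 nt, 22.2% as a median of single RRTS values and 23% without PSMA4. The number of genes with readthrough reads was 17 with regions of at least 60 nt, since 17 genes have such a region. The spread of core densities, 43.8% on average over the untreated libraries, was 56.4% with PSMB9. The fold over untreated was 22.5 to 28.7 when an untreated library was left out, and it was not computed without PSMA4 and PSMD8. Depth limits the genes with few readthrough reads most, since 3 reads in PSMD5 would already be an RRTS of 64.6%.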
